A study of Rattus norvegicus with 15 samples.

Results

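Obp3, Car3, Stac3, Nat8, Gimd1, Srd5a1 and Hao2 are 7 genes of rat liver that were picked because their RNA was much lower in rats on a lipid-raising feed than in rats on normal chow. They are 7 of the 21576 genes in the deposited table, matched by symbol, and all 7 were among the 13163 genes that passed the filter on low counts. They were chosen by these same read counts, as the difference of each feed group from chow, so that difference is described without a test. They were put forward as hormone-dependent hepatocyte genes that are nearly lost on the diet. No hormone was measured in the files used here, and the last clause fits 5 of the 7: Srd5a1 kept 14.2% and Hao2 46.7% of the chow level in the group on the feed alone, whereas Obp3, Stac3, Gimd1, Nat8 and Car3 kept between 0.200% and 3.12%.

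Liver RNA came from male Sprague-Dawley rats and was sequenced in 15 libraries, 5 in each of 3 groups. Rats of the CON group ate normal chow. Rats of the HFD group ate a feed with 2% cholesterol, 8.3% yolk, 7% lard, 16.7% sucrose, 0.3% sodium cholate, 0.2% propylthiouracil and 66% base forage, and were given saline in the last 4 weeks of the experiment. Rats of the ZXD group ate that same feed and received ZXD, the herbal Zexie Decoction, orally in those 4 weeks at a daily dose of 2.2 g per kg. In all 3 groups a lead-in of 4 weeks came before those last 4 weeks. Propylthiouracil blocks the synthesis of thyroid hormone, and both HFD and ZXD rats ate it, so that fat, cholesterol, bile salt and the antithyroid drug cannot be told apart in any comparison with CON. Each group had 10 rats per the labels, which do not tie libraries to animals, so the spread between libraries may be partly technical and p-values measure that spread only.

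The liver reads the pituitary through growth hormone. In adult male rats it arrives in pulses, and in females it is nearly continuous; the signal passes through the growth hormone receptor, the kinase Jak2 and the transcription factor Stat5b, and sets which steroid-metabolising and secreted proteins the hepatocyte makes. Thyroid hormone acts through nuclear receptors, chiefly Thrb in liver, and induces lipogenic and deiodinase genes. Several male-pattern liver proteins, among them the alpha-2u-globulins to which Obp3 belongs, are classical examples of genes that need androgen, pulsatile growth hormone and thyroid hormone together.

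RefSeq start-site sequences of the GRCr8 build were searched for 6 of the 7 genes; none was used for Car3. A window of 250 bases before the annotated start was scanned on both strands, with the last base before the start counted as -1. TTCNNNGAA, the pattern bound by Stat5, was in 0 of the 6 windows and in 7.67% of 33469 rat windows of the same length. AGGTCA, the half-site of nuclear receptors that include the thyroid hormone receptor, was in 1 of the 6 (Stac3) and in 14.1% of all windows. GTTAAT, a half-site of HNF1, was in 0 of the 6 and in 6.45% of all. TATAAA was in 3 of the 6 (Obp3, Nat8 and Hao2) and in 12.9% of all, and CCAAT in 2 of the 6 (Stac3 and Srd5a1) and in 34.0% of all. The TATAAA match of Hao2 was in reverse and far from the start, at -197. The 5 patterns differ in length and so in how often any window holds them, and a match is a run of letters, not a shown binding site.

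The 3 stretches of 30 bases below are shown because Obp3 and Nat8 carry a TATA box close to the start, at -33 and -30, and because Stac3 carries the single nuclear receptor half-site, in reverse, at -125. All run 5′ to 3′ on the strand of the gene, and capitals mark the match.
Obp3, chr5:79640691-79640720, minus strand: acccagagagagTATAAAgacgagcaaagt
Nat8, chr4:119837777-119837806, minus strand: acgaggcagcaaTATAAAcagatctggtgt
Stac3, chr7:65228338-65228367, plus strand: ataagccagtacTGACCTgcttgggtgtaa

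The full windows of Nat8 and Srd5a1 are printed to set a gene with a TATA box and a G+C content of 52.8% beside one without it, where G and C make up 66.4% and CCAAT occurs at -165 and -52. The median over all windows is 51.2%. Of the others, Stac3 has 54.0%, Obp3 44.0%, Gimd1 41.6% and Hao2 33.2%. Capitals again mark TATAAA or CCAAT.
Nat8, chr4:119837765-119838014, minus strand: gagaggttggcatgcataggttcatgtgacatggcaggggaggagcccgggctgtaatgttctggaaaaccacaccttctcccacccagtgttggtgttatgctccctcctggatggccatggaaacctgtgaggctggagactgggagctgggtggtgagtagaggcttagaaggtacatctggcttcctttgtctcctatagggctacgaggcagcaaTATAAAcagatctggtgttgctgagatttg
Srd5a1, chr1:35514664-35514913, plus strand: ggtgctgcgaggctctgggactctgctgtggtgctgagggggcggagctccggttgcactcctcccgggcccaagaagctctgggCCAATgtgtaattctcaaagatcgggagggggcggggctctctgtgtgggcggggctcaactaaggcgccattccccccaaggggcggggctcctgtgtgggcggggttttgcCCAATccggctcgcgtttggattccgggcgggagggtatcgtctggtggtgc

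The depth per library ranged from 12972523 to 14228052 counts for CON, from 12552449 to 13687385 for HFD, and from 12688915 to 13532245 for ZXD. Levels are given as CPM (counts per 1e6 counts) on a library size scaled by TMM, a method that centres most genes between libraries. Scaling by library totals in place of TMM shifted the median change over the tested genes on the log2 scale, from 0.02 to 0.44 for HFD against CON and from 0.03 to 0.45 for ZXD against CON, and all 7 genes stayed lower than in CON. A count of 3, used as the detection floor, was worth 0.183 to 0.285 CPM. Summed CPM of 15 hepatocyte markers, which include albumin and apolipoproteins, was 186090 to 217876 across CON libraries, 97796 to 134562 across HFD and 79124 to 127196 across ZXD. Without albumin the sums were 86719 to 106415, 59338 to 86951 and 65321 to 79038, so that CON and HFD overlapped at the edge. Of the 15 markers, 5 fell, 0 rose and 10 did not pass in HFD against CON, with a median log2 fold change of -0.34, and 7 fell and 0 rose in ZXD against CON, with a median of -0.56 (edgeR adjusted p under 0.05); of all tested genes 10.9% fell in HFD and 14.8% in ZXD. The part of these shifts in the levels of the 7 genes was not tested. In whole tissue, fewer cells of a type and less RNA per cell cannot be told apart.

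**Figure D1:**
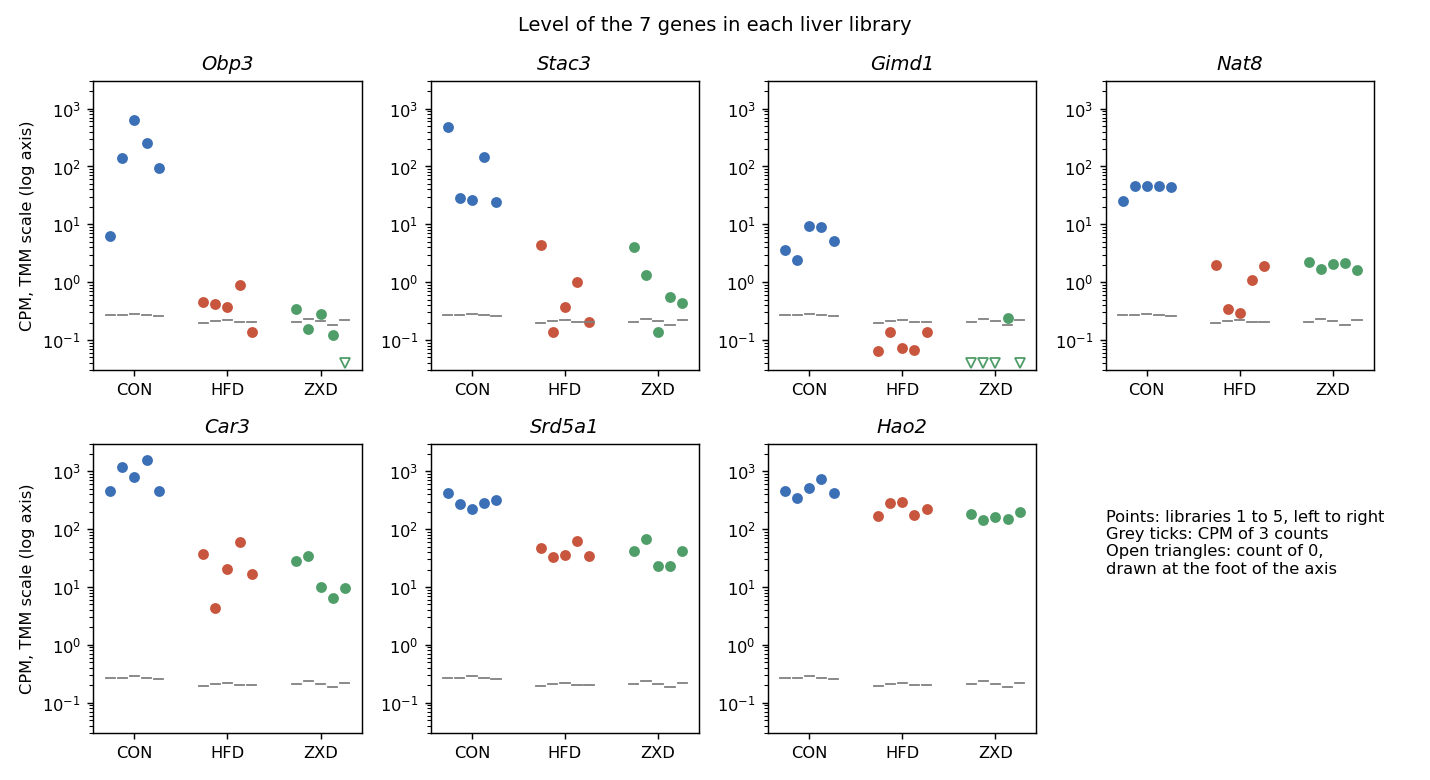
CPM on the TMM scale (log axis) of each gene in each of the 15 libraries, with libraries 1 to 5 of a group from left to right; grey ticks mark what 3 counts are worth and open triangles a count of 0. The CON points lie above all HFD and ZXD points of the same gene in all 7 panels, by the narrowest margin for Hao2.

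Obp3, a secreted lipocalin of the alpha-2u-globulin family that carries small odorants in the urine of male rats, was present in CON at 6.19, 138, 641, 252 and 93.4 CPM in libraries 1 to 5. In HFD it was at 0.453, 0.418, 0.369, 0.886 and 0.135 CPM, and in ZXD at 0.344, 0.156, 0.279, 0.122 and 0 CPM. The CON libraries thus spread 104-fold among themselves, and yet the lowest of them, CON 1, was 6.99-fold above the highest HFD library. The mean was 226 ± 248 CPM in CON, 0.452 ± 0.272 in HFD and 0.180 ± 0.135 in ZXD (SD, n = 5 each). Read by read, the 5 HFD libraries together held 33 Obp3 counts (95% Poisson interval 22.7 to 46.3, counting error only) and the 5 ZXD libraries 13 (6.92 to 22.2), against 69 to 6756 in single CON libraries. A single HFD library and 3 ZXD libraries were at or under the detection floor. The fitted log2 fold change was -8.93 (SE 1.04) for HFD against CON and -10.22 (SE 1.14) for ZXD against CON, the second most negative of 13163 genes in each. Without CON 3 the values were -8.03 and -9.34, and with the replicate block the HFD value was -8.34. With limma voom they were -7.96 (SE 2.67) for HFD and -9.31 (SE 3.55) for ZXD, so less sure than in the edgeR fit.

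Reads of Obp3 may be shared with its alpha-2u-globulin relatives, whose copies are nearly alike, so that the split between them is uncertain. Mup5 had 4 to 6 counts in every CON library and 0 in each of the 10 others. Mup4 had 0 to 3 counts in CON and 0 in each of the 10 others. Both were too low to be tested. Obp1f, a lipocalin of the nasal glands, had 5 to 14 counts per CON library, 3 to 16 per HFD library and 2 to 9 per ZXD library.

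Stac3, an adaptor protein best known for coupling the Cav1.1 calcium channel to contraction in skeletal muscle, was at 486, 28.7, 26.1, 146 and 24.0 CPM in the CON libraries. It was at 4.33, 0.139, 0.369, 1.02 and 0.203 CPM in HFD and at 4.13, 1.32, 0.140, 0.549 and 0.435 CPM in ZXD. CON 1 and CON 4 stood far above the other CON libraries, and the highest value of HFD and of ZXD was each in library 1; no CON library overlapped either feed group. For Stac3, 2 HFD libraries and 1 ZXD library were at or under the detection floor. The mean was 142 ± 199 CPM in CON, 1.21 ± 1.78 in HFD and 1.31 ± 1.63 in ZXD, or 0.854% and 0.925% of CON. The log2 fold changes against CON were -6.83 (SE 1.20) for HFD and -6.75 (SE 1.20) for ZXD, and without CON 1 they were -5.50 and -5.41. Without HFD 1 the HFD value was -8.32, and without ZXD 1 the ZXD value was -7.87.

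Markers of other cells were read beside the CON spread of Stac3. Summed CPM of 15 skeletal muscle markers was 7.91 to 33.5 across CON libraries, 14.4 to 18.1 across HFD and 13.8 to 20.0 across ZXD. The top of the CON range was CON 2, with 98 counts of the muscle actin Acta1, 33 of the creatine kinase Ckm and 23 of myoglobin (Mb). In CON 1 these 3 genes had 0 counts, as in the remaining CON libraries, and the fast myosin Myh4 had 0 counts in all 15. Ryr1 held the most counts of the muscle markers in every library but CON 2, so it weighed most in these sums. The 2 CON libraries highest in Stac3, CON 1 and CON 4, had the highest CON sums of macrophage markers, 923 and 889 CPM against 273 to 609, and of T cell markers, 28.4 and 32.8 CPM against 11.3 to 21.5. On the feed, the highest macrophage and T cell sums were in HFD 2 (1735 and 88.2 CPM) and ZXD 4 (3668 and 126 CPM). Stac3 was at 0.139 and 0.549 CPM in these 2 libraries. HFD 1 and ZXD 1, highest in Stac3, had macrophage sums of 804 and 1167 CPM and T cell sums of 41.2 and 66.8. The part of muscle, macrophage or T cell RNA in the Stac3 level was not tested. The related Stac and Stac2 were at 0 to 1 and 0 to 2 counts in the CON libraries.

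Gimd1, a little-studied protein with a GTP-binding domain of the GIMAP type, was the scarcest of the 7. It was at 3.59, 2.41, 9.40, 8.95 and 5.11 CPM in CON, from 40, 27, 99, 101 and 60 counts. In HFD its counts were 1, 2, 1, 1 and 2, and in ZXD 0, 0, 0, 4 and 0. All 5 HFD libraries and 4 of 5 ZXD libraries were thus at or under the detection floor, and the ZXD signal came from library 4 alone. The means were 5.89 ± 3.15 CPM in CON, 0.0963 ± 0.0378 in HFD and 0.0488 ± 0.109 in ZXD. The totals of 7 HFD counts (95% Poisson interval 2.81 to 14.4) and 4 ZXD counts (1.09 to 10.2) do not separate these groups. Fitted log2 fold changes against CON were -5.80 (SE 0.69) and -6.53 (SE 0.74), which at such counts depend on the prior count of the fit. Without ZXD 4, the ZXD value was -9.28.

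Nat8, an acetyltransferase of the endoplasmic reticulum that completes mercapturic acids from cysteine conjugates, was at 24.8, 45.6, 46.8, 45.5 and 44.9 CPM in CON. It was at 2.01, 0.349, 0.295, 1.09 and 1.90 CPM in HFD and at 2.27, 1.71, 2.09, 2.13 and 1.59 CPM in ZXD. CON libraries 2 to 5 were nearly level, CON 1 was the lowest, and no CON value came within 10-fold of a value in either feed group. The means were 41.5 ± 9.36 CPM in CON, 1.13 ± 0.816 in HFD and 1.96 ± 0.291 in ZXD. Against CON, the log2 fold change was -5.18 (SE 0.41) in HFD and -4.40 (SE 0.39) in ZXD. In the table's own positions Nat8 overlaps its relative Nat8f5 on the same strand, so reads of the pair may have been dropped or split; Nat8f5 had 3 to 11 counts per CON library.

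Car3, a cytosolic carbonic anhydrase with weak CO2 hydration activity that is abundant in muscle, fat and the liver of male rats, had the highest CON level of the 7. It stood at 461, 1198, 790, 1540 and 454 CPM in CON. It was at 36.8, 4.32, 20.7, 60.4 and 16.5 CPM in HFD and at 27.8, 34.8, 10.1, 6.34 and 9.49 CPM in ZXD. The feed groups overlapped each other and varied more in proportion than CON: the highest HFD library held 14.0-fold the lowest, against 3.40-fold in CON. The means were 889 ± 475 CPM in CON, 27.8 ± 21.6 in HFD and 17.7 ± 12.8 in ZXD, with log2 fold changes against CON of -5.00 (SE 0.71) and -5.65 (SE 0.74). Car3 is also a fat cell gene, and summed CPM of 8 fat cell markers was 104 to 127 across CON libraries, 107 to 140 across HFD and 98.1 to 134 across ZXD. Most of that sum was Cidec alone, with 1065 to 1391 counts across CON libraries, 1208 to 1446 across HFD and 1120 to 1404 across ZXD. The sum therefore says little about the other markers. Of the 4 that were tested, 3 rose in HFD and 3 rose and 1 fell in ZXD against CON; over all tested genes 10.0% rose in HFD, and in ZXD 17.9% rose and 14.8% fell. Fabp4 had 3 to 14 counts across CON libraries and 16 to 230 across HFD, and Cfd 47 to 96 and 102 to 382. Plin1 was at 0 counts in all 15 libraries, Adipoq at 0 to 2 and Lep at 0 to 1. The part of fat cell RNA in the Car3 level was not tested.

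Srd5a1, the steroid 5-alpha-reductase that saturates testosterone, progesterone and corticosteroids, was at 414, 274, 220, 279 and 319 CPM in CON. It was at 47.6, 33.1, 36.4, 62.4 and 34.2 CPM in HFD and at 41.8, 67.6, 23.1, 23.0 and 41.9 CPM in ZXD. All libraries were far above the detection floor, and the lowest CON library was 3.52-fold above the highest HFD library. The means were 301 ± 72.2, 42.7 ± 12.4 and 39.5 ± 18.3 CPM, and the log2 fold changes against CON -2.82 (SE 0.30) in HFD and -2.93 (SE 0.30) in ZXD.

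Hao2, a peroxisomal flavin enzyme that oxidises long-chain 2-hydroxy acids, was at 455, 349, 520, 725 and 429 CPM in CON. It was at 168, 284, 301, 176 and 227 CPM in HFD and at 180, 147, 164, 151 and 195 CPM in ZXD. The lowest CON library exceeded the highest HFD library by a factor of 1.16 only. The means were 496 ± 142, 231 ± 60.5 and 167 ± 20.0 CPM. The log2 fold change against CON was -1.10 (SE 0.21) in HFD and -1.57 (SE 0.21) in ZXD; on library totals it was -0.68 and -1.13. Among 13163 genes ordered from the most negative change, Hao2 was 519th in HFD against CON and Srd5a1 63rd, while the other 5 were 2nd (Obp3), 6th (Stac3), 9th (Gimd1), 11th (Nat8) and 12th (Car3).

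**Figure D2:**
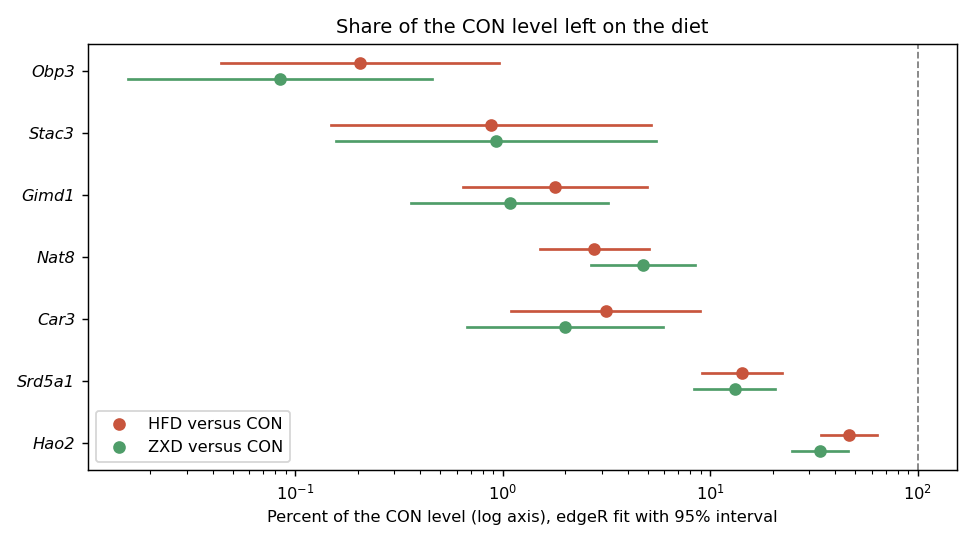
Level of each gene in HFD (red) and ZXD (green) as a percent of the CON level (log axis), from the edgeR fit over 15 libraries; lines are 95% intervals and the dashed line marks 100%. Obp3 lies near 0.2% in HFD, Srd5a1 near 14% and Hao2 at 46.7%, and the intervals of the feed groups overlap for every gene.

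In both comparisons with CON, all 7 genes were lower with no overlap between groups. That is how they were chosen, and 8.46% of all tested genes were lower without overlap in HFD against CON and 9.79% in ZXD against CON. The 2 comparisons share the 5 CON libraries.

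The 7 genes were chosen as low in both HFD and ZXD, which leaves little room for a difference between these groups. A gene that the decoction brought back to the CON level could not be among them. The difference of ZXD from HFD was not itself used in the choice, and it was tested with that limit. It passed for 0 of the 7, and 0% of the 13163 tested genes passed in either direction (edgeR adjusted p under 0.05). The group values overlapped for all 7, where 1.53% of tested genes were lower and 2.14% higher in ZXD without overlap. Nat8 had the largest positive estimate, a log2 difference of ZXD minus HFD of 0.78 (95% interval -0.07 to 1.63, edgeR adjusted p = 0.339), with 2 of 5 HFD libraries inside the narrow ZXD range of 1.59 to 2.27 CPM. Hao2 was lower by 0.47 (interval -0.91 to -0.03), which reached an unadjusted p of 0.0389 but an edgeR adjusted p of 0.279.

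The remaining intervals were wide. For Obp3 the log2 difference of ZXD minus HFD was -1.28 (interval -4.32 to 1.75, edgeR adjusted p = 0.656), for Gimd1 -0.73 (-2.75 to 1.29, adjusted p = 0.708) and for Car3 -0.65 (-1.96 to 0.66, adjusted p = 0.594). Stac3 was at 0.09 (-2.45 to 2.62, adjusted p = 0.978), and Srd5a1, with the narrowest of these intervals, at -0.12 (-0.72 to 0.49, adjusted p = 0.857). For Obp3, Stac3 and Gimd1 a several-fold difference in either direction lies within the interval. Obp3 and Gimd1 rested on few counts, 33 and 7 over the 5 HFD libraries. Stac3 had 92 counts over the HFD and 94 over the ZXD libraries, beside 84 and 142 for Nat8, but varied more between libraries, with a coefficient of variation of 147% in HFD and 124% in ZXD. Without HFD 1 the Stac3 difference was 1.57 and without ZXD 1 -1.03, and without ZXD 4 that of Gimd1 was -3.48. A p that misses the threshold does not show that the groups were alike. Over all genes, 2167 had an unadjusted p under 0.05 in this comparison; DESeq2 called 342 genes and limma voom 0.

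Levels of different genes can be compared per length, with the deposited FPKM. In CON, Car3 stood first at 903 ± 462 FPKM (SD, n = 5), then Hao2 at 247 ± 64.6, Obp3 at 183 ± 200, Srd5a1 at 95 ± 23.8, Stac3 at 75.2 ± 106, Nat8 at 43.9 ± 9.96 and Gimd1 at 2.89 ± 1.50. Car3 and Gimd1 stood clear of their neighbours in that order, while Hao2 and Obp3, Obp3 and Srd5a1, Srd5a1 and Stac3, and Stac3 and Nat8 overlapped between libraries. In HFD the order became Hao2 at 154 ± 39.0 FPKM, Car3 at 37.9 ± 29.0 and Srd5a1 at 18.0 ± 5.02, followed by Nat8 at 1.61 ± 1.19, Stac3 at 0.876 ± 1.30, Obp3 at 0.491 ± 0.288 and Gimd1 at 0.0638 ± 0.0255. In ZXD Hao2 was at 112 ± 13.5 FPKM, Car3 at 23.6 ± 15.8, Srd5a1 at 16.3 ± 6.45, Nat8 at 2.80 ± 0.582, Stac3 at 0.918 ± 1.13, Obp3 at 0.197 ± 0.145 and Gimd1 at 0.0374 ± 0.0837. Hao2, the least changed of the 7, was thus the most abundant per length in both feed groups.

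The CON libraries differed from each other in these genes more than most genes did. The coefficient of variation over the 5 CON libraries was 140% for Stac3 and 110% for Obp3, above 99.8% and 99.5% of the 12116 genes with a mean of at least 1 CPM in CON. For Car3 and Gimd1 it was 53.5% for each, above 92.9% and 93.0% of those genes. For Hao2, Srd5a1 and Nat8 it was 28.7%, 24.0% and 22.5%, above 71.6%, 63.1% and 60.1% of them, nearer to a typical gene.

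CON 1 stood apart among the 5. It held the lowest CON value of Obp3 and of Nat8 and the highest of Stac3 and of Srd5a1. Other genes in which CON 1 differed were looked up after its values were seen. Of genes with a female pattern in rat liver, Cyp2c12 was at 92.3 CPM in CON 1 and 20.2 to 54.9 in the others, the repressor Cux2 at 71.9 against 4.46 to 29.4, the prolactin receptor Prlr at 147 against 20.1 to 73.6, and A1bg had 36 counts against 0 to 4. The male-pattern Cyp2c11 was at 2312 CPM, the lowest, against 2758 to 4023. These sex-pattern genes were picked from a list of 34, and not all of the list followed. Without CON 1 the HFD value of the female-pattern Sult2a1 went from -4.18 to -4.30, so CON 1 was below the other CON libraries on average. For the male-pattern Cyp7b1 it went from -0.19 to -0.17, so CON 1 was not low in it. Of genes induced by thyroid hormone, 3 were picked as low in CON 1: the deiodinase Dio1 was at 58.9 CPM against 193 to 232, malic enzyme Me1 at 9.77 against 28.3 to 40.5, and the P450 reductase Por at 388 against 856 to 1070. Other thyroid hormone targets were not lowest there: Thrsp was at 368 CPM in CON 1 against 259 to 745, Fasn at 151 against 93.1 to 193 and Acaca at 72.8 against 49.3 to 83.5. Igf1, made in response to growth hormone, was highest in CON 1 at 960 CPM against 490 to 859. The part of this pattern in the spread of the 7 genes was not tested.

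Without CON 1, the log2 fold changes of HFD against CON were -9.25 for Obp3, -5.16 for Car3, -5.50 for Stac3, -5.32 for Nat8, -5.94 for Gimd1, -2.68 for Srd5a1 and -1.13 for Hao2. Those of ZXD against CON were -10.53, -5.82, -5.41, -4.54, -6.68, -2.79 and -1.60 in the same order. The low levels on the feed were therefore as marked without that library for 5 of the 7, and smaller for Stac3 and Srd5a1.

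**Figure D3:**
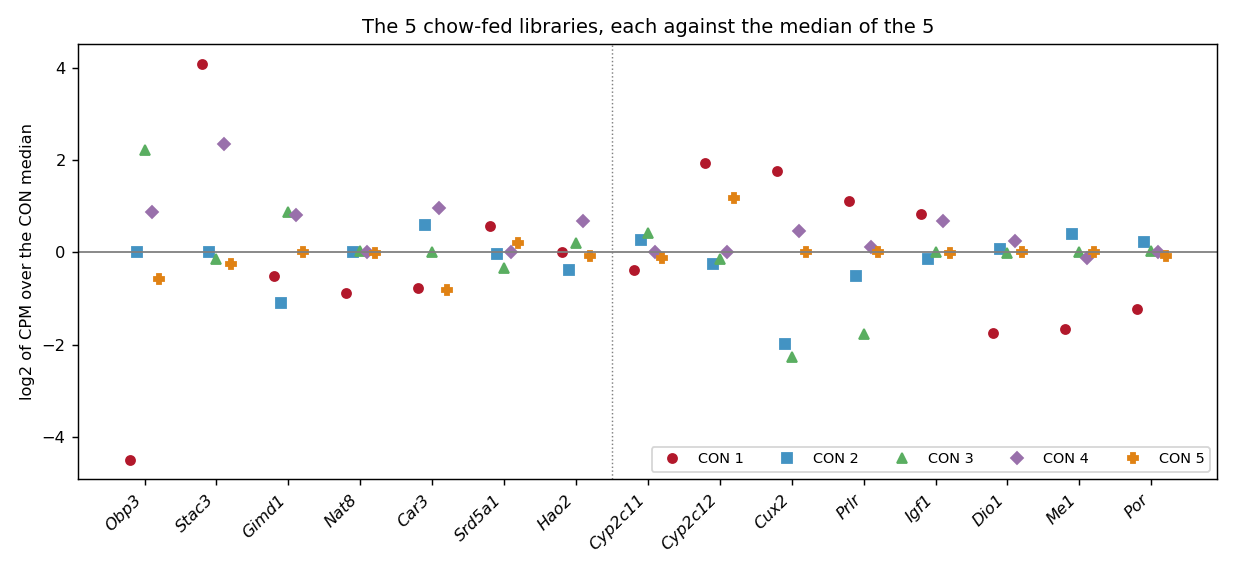
CPM of each gene in each CON library relative to the median of the 5 CON libraries (log2 scale); the 7 genes are left of the dotted line and 8 hormone-related genes, chosen after their values were seen, right of it. CON 1 (red circles) is lowest for Obp3 and Nat8, and also for Dio1, Me1 and Por, and highest for Stac3, Cyp2c12, Cux2 and Prlr.

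How the 7 genes vary together was described by Pearson's r of log2 CPM. Over the 15 libraries r between any pair lay between 0.73 (Nat8 and Hao2) and 0.95 (Car3 and Srd5a1), a range set by the gap between CON and the feed groups. With each value centred on its group mean, r ran from -0.50 (Nat8 and Hao2) to 0.60 (Stac3 and Srd5a1), so within groups the 7 did not move as a block. Car3 and Srd5a1 were at 0.55 and Car3 and Stac3 at 0.46, while Gimd1 and Srd5a1 were at -0.49. The points share libraries and, for Obp3, Stac3 and Gimd1, very low counts.

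The genes whose pattern was most like each of the 7 over the 15 libraries were found in the same way, among 12279 genes. For Srd5a1 they were Fabp1, the liver fatty acid binding protein, at r = 0.98, and Hao1, the glycolate oxidase related to Hao2, at 0.98. For Car3 they were Paqr9 and Atg9a, both at 0.97, and for Obp3 Atg9a and Mcfd2, both at 0.96. Nat8 was most like Phlpp2 and the apolipoprotein gene Apoa4, both at 0.97, and Gimd1 most like Tp53inp2 and Rtn4rl2, both at 0.97. Stac3 was closest to the fatty acid desaturase Fads1 at 0.96 and to Derl2 at 0.95. Hao2 was closest to Dhcr7, the last enzyme of cholesterol synthesis, at 0.94 and to Ggact at 0.92.

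Likeness in shape did not mean a like size of change. Apoa4 went from 1322 ± 394 CPM in CON to 43.3 ± 26.6 in HFD, and Paqr9 from 76.6 ± 12.9 to 7.57 ± 3.29. Atg9a went from 129 ± 8.90 to 86.4 ± 6.13 only. With the group difference removed, Srd5a1 was closest to Tfcp2l1 and Spg11, both at r = 0.95, Car3 to Brwd1 at 0.91 and Cbs at 0.90, and Hao2 to Tceal8 at 0.84 and Slc18b1 at 0.83; none of these is a nearest gene over the ungrouped values. The other 4 genes had libraries under 10 counts and were not ranked this way.

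Genes of the growth hormone path and of sex-dependent liver metabolism were read as a list. Of 31 tested, 15 fell, 1 rose and 15 did not pass in HFD against CON (edgeR adjusted p under 0.05), with a median log2 fold change of -0.78 beside 0.02 over all genes; of all tested genes 10.9% fell and 10.0% rose. On library totals 12 fell and 6 rose. In ZXD against CON 15 fell and 3 rose, with a median of -1.08 beside 0.03, where 14.8% of all genes fell and 17.9% rose, and on library totals 6 rose. In ZXD against HFD 0 passed.

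The receptor and its signalling partners moved unequally. Ghr, the growth hormone receptor, fell from 897 ± 193 CPM in CON to 398 ± 124 in HFD (log2 fold change -1.17, SE 0.32, edgeR adjusted p = 0.0186), a call lost without HFD 2 (adjusted p = 0.0514). Stat5b was at 32.8 ± 2.90 CPM in CON and 33.9 ± 4.25 in HFD (edgeR adjusted p = 0.778). On library totals it was higher in HFD, by 0.46 in log2 units (edgeR adjusted p = 0.00588). In ZXD against CON Stat5b was called higher, by 0.33, and Jak2 by 1.41. The Stat5b call was lost with the replicate block and without CON 1, CON 5, ZXD 4 or ZXD 5. Of the targets, Igf1, the main circulating growth factor induced by growth hormone, fell from 676 ± 217 CPM in CON to 127 ± 82.7 in HFD (edgeR adjusted p = 0.00209), and Socs2, a feedback inhibitor of the receptor, by 2.42 in log2 units (edgeR adjusted p = 0.000848).

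Transcription factors and enzymes of the list included the deepest falls. Onecut1 (HNF6), which drives female-pattern P450 genes, fell from 118 ± 35.5 CPM in CON to 3.91 ± 3.43 in HFD (log2 fold change -4.90, SE 0.56, edgeR adjusted p = 7.06e-05). The oestrogen receptor Esr1 fell by 3.66 (SE 0.58, edgeR adjusted p = 0.000804). Sult2a1, a steroid sulfotransferase, fell by 4.18 (SE 0.85, edgeR adjusted p = 0.00391). Sult2a2, of the same family, was the single gene that rose, from 0 counts in all CON libraries to 42, 2, 35, 11 and 12 counts in HFD (edgeR adjusted p = 0.00844). It was left out by a filter of at least 1 CPM in at least 5 libraries, and its reads may be shared with its near copies.

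Thyroid hormone genes moved in both directions. Of 23 tested, 7 fell, 2 rose and 14 did not pass in HFD against CON, with a median log2 fold change of -0.66, where 10.9% of all genes fell and 10.0% rose. In ZXD against CON 6 fell and 4 rose, with a median of -0.34, where 14.8% of all genes fell and 17.9% rose. The numbers that rose were thus near the share over all genes. On library totals 6 fell and 4 rose in HFD, and DESeq2 called 11 lower there. Dio1, the liver deiodinase and a standard marker of thyroid hormone action, fell from 177 ± 67.8 CPM in CON to 11.5 ± 7.07 in HFD (log2 fold change -3.94, SE 0.49, edgeR adjusted p = 0.000134) and was at 14.7 ± 7.09 in ZXD. Without CON 1 the HFD value was -4.16.

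Lipogenic targets fell with it. Thrsp, the thyroid hormone responsive Spot 14 gene, fell by 3.93 on the log2 scale in HFD (edgeR adjusted p = 5.32e-05). Fasn, fatty acid synthase, fell by 2.99 (edgeR adjusted p = 0.000104), and Acaca, which makes its malonyl-CoA, fell by 1.84 (edgeR adjusted p = 0.000314). Ttr, transthyretin, a carrier of thyroxine in plasma, fell from 6454 ± 1168 CPM in CON to 2529 ± 668 in HFD (edgeR adjusted p = 0.00896). Serpina7, thyroxine-binding globulin, which the rat liver makes more of when thyroid hormone is low, rose from 13.3 ± 7.07 to 148 ± 37.4 CPM (edgeR adjusted p = 6.60e-05).

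Of the receptors, Thra rose by 0.86 (edgeR adjusted p = 0.0132). Thrb fell by 0.65 (edgeR adjusted p = 0.0289), a call that was lost on library totals (-0.24, adjusted p = 0.243), with the replicate block, and without CON 2, CON 3, CON 4, HFD 2 or HFD 5. Me1, another textbook target, was at 28.1 ± 11.3 CPM in CON and 27.7 ± 9.09 in HFD (edgeR adjusted p = 0.969).

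**Figure D4:**
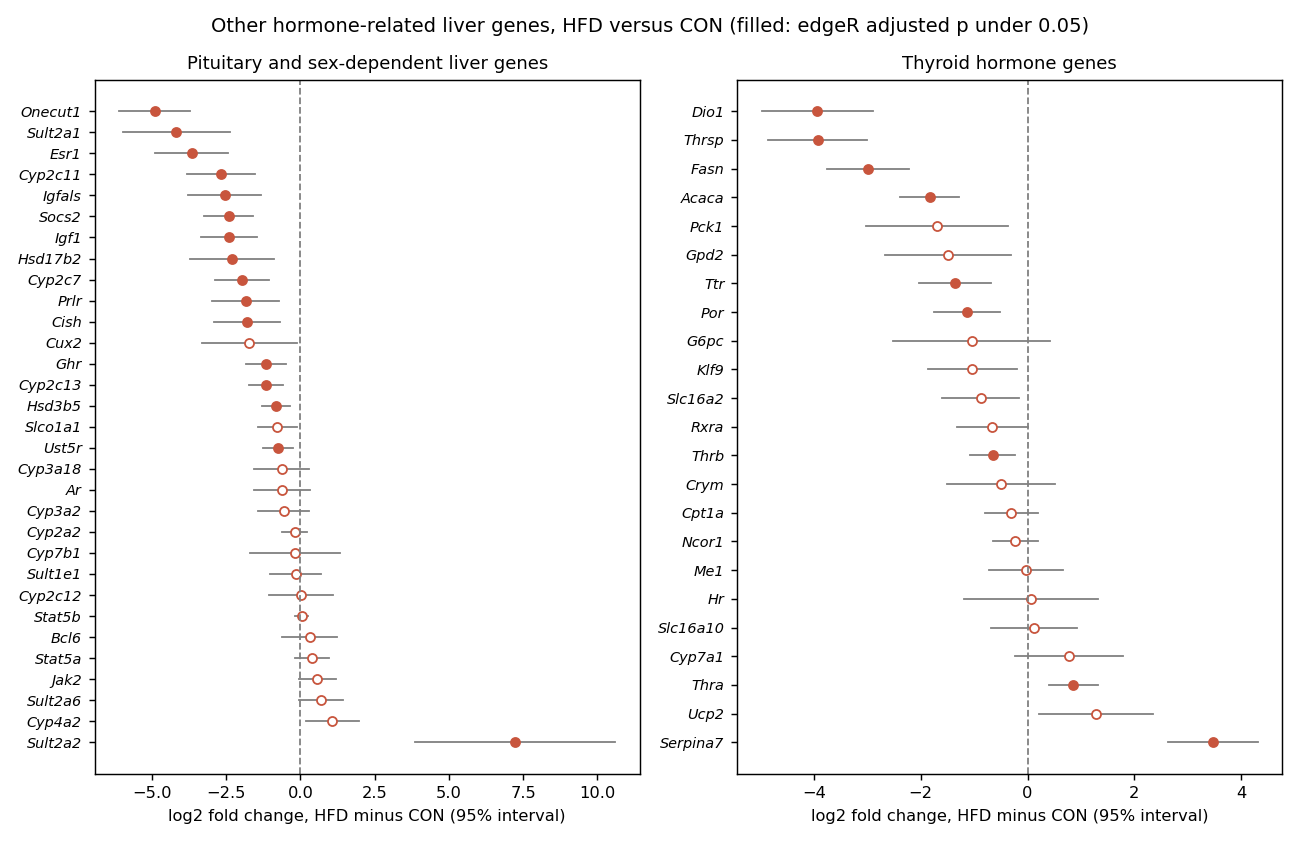
Log2 fold change of HFD minus CON with its 95% interval for 31 pituitary and sex-dependent genes (left) and 23 thyroid hormone genes (right), on separate axes; filled circles have an edgeR adjusted p under 0.05. On the left 15 filled circles lie below 0 and 1 above, and on the right 7 below and 2 above.

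Family members of the 7 genes were read in the same way. Of 43 relatives listed, 37 were in the table and 20 were tested; in HFD against CON 3 fell and 2 rose, with a median log2 fold change of 0.31, and in ZXD against CON 3 fell and 8 rose, with a median of 0.23. Over all tested genes 10.9% fell and 10.0% rose in HFD, and 14.8% and 17.9% in ZXD, so that the counts of relatives lay near those shares except for the 8 that rose in ZXD. Those 8 were Lcn2, Srd5a3 and Gimap4 to Gimap9, which were listed as relatives of Gimd1 alone. Gimap5 and Gimap8 kept the call under all alternatives. The calls of Gimap4, Gimap7 and Gimap9 were lost with limma voom and with the replicate block, those of Lcn2 and Srd5a3 with limma voom, and that of Gimap6 without ZXD 4. On library totals 7 rose in HFD, and without CON 1 4 rose.

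Hao1, the glycolate oxidase of liver peroxisomes, fell from 426 ± 62.3 CPM in CON to 125 ± 16.8 in HFD (log2 fold change -1.77, SE 0.21, edgeR adjusted p = 7.28e-05). Nat8f3 fell from 10.1 ± 2.64 CPM in CON to 1.31 ± 1.17 in HFD (edgeR adjusted p = 0.000863), while Nat8b was at 3.74 ± 1.87 and 2.82 ± 0.583 CPM (adjusted p = 0.389). Reads within the Nat8 family may be shared. Tecr, a reductase of fatty acid elongation with a 5-alpha-reductase domain, fell by 0.99 (edgeR adjusted p = 0.00232).

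Srd5a3, which makes dolichol for protein glycosylation, rose from 3.36 ± 0.545 to 11.6 ± 6.05 CPM (edgeR adjusted p = 0.0116), opposite in sign to Srd5a1. Lcn2, an acute-phase lipocalin, rose from 6.35 ± 6.41 to 537 ± 677 CPM (edgeR adjusted p = 0.0114). Both of these calls were lost with limma voom (adjusted p = 0.0604 and 0.0773).

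None of the tested carbonic anhydrases passed in HFD. Per length, Car14, a membrane form, was at 76.4 FPKM in CON and 54.3 in HFD, the mitochondrial Ca5a at 35.5 and 35.7, the inactive Car8 at 25.1 and 41.7, and Car2, the fast cytosolic form, at 6.74 and 14.9. Car3 was thus 903 FPKM beside at most 76.4 for these 4 relatives in CON, and of the same order as Car14, Car8 and Ca5a in HFD. FPKM follows library totals, so changes between groups differ on the TMM scale. There the log2 fold change of HFD against CON was 0.71 for Car2 (edgeR adjusted p = 0.0552) and -0.91 for Car14 (0.160). It was 0.31 for Car8 (0.302) and -0.41 for Ca5a (0.334). Car2 passed on library totals (edgeR adjusted p = 0.00380) and without CON 1 (0.0155), and Car8 passed on library totals (0.0103).

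**Figure D5:**
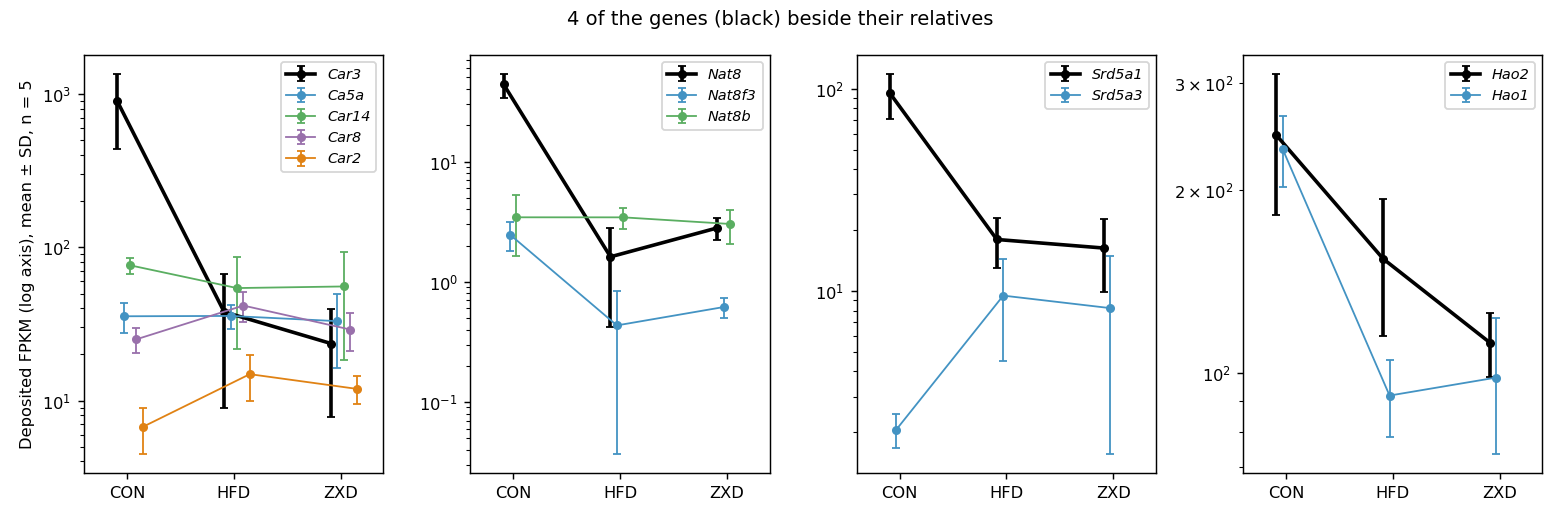
Deposited FPKM (mean ± SD, n = 5 libraries, log axes that differ between panels) of Car3, Nat8, Srd5a1 and Hao2 (black) and of tested relatives (colours) in CON, HFD and ZXD. Car3 goes from 903 FPKM in CON to 37.9 in HFD, near its relatives, Srd5a3 lies higher on the feed while Srd5a1 lies lower, and Hao1 lies lower together with Hao2. FPKM is scaled by library totals and not by TMM.

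Markers of other liver cells were summed in the same way. Summed CPM of 14 macrophage and Kupffer cell markers was 273 to 923 across CON libraries, 475 to 1735 across HFD and 784 to 3668 across ZXD, and of 8 T cell markers 11.3 to 32.8, 24.4 to 88.2 and 34.0 to 126. The macrophage sums overlapped between CON and each feed group, and 3 of the 14 markers rose in HFD and 11 in ZXD against CON. Of 7 T cell markers tested 6 rose in HFD and 7 in ZXD. Summed CPM of 7 cholangiocyte (bile duct cell) markers was 38.4 to 55.3 across CON libraries, 69.3 to 123 across HFD and 59.6 to 97.1 across ZXD, with no overlap between CON and either feed group, and 3 of the 7 rose in HFD and 2 in ZXD. Over all tested genes 10.0% rose in HFD and 17.9% in ZXD. Of 9 kidney tubule markers, Aqp2, Kap and Cdh16 were at 0 counts in all 15 libraries and Lrp2 was at 146 to 284. Their sum was 21.3 to 26.1 CPM across CON libraries, 13 to 20.5 across HFD and 9.33 to 22.5 across ZXD, and the single one tested fell in ZXD against CON. The part of these cell types in the levels of the 7 genes was not tested.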

How the data were processed

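The authors deposited 1 table that gives, per the file headers, a read count (a whole number) and an FPKM for every gene in each of the 15 libraries. The deposited FPKM equalled the count divided by gene length and library total, with 100% of values above 0 within 0.01%. They were used to compare levels between genes. Where they are shown by group, they follow library totals and not TMM. Of tools, the submitters' processing notes list edgeR alone, without its use or version. The sources used here do not give the aligner, counter, strand use, genome build or annotation, so no coordinates of the table are printed. A simvastatin group named in the labels was not analysed here.

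Counts were filtered by group with filterByExpr (a count of 10 and a total of 15 as minima), scaled with TMM and fitted in edgeR 4.0.16 (R 4.3.3) with a robust quasi-likelihood model over all 15 libraries, group as the single term and 12 residual degrees of freedom. Standard errors are the log2 fold change over the square root of F, adjusted p-values are Benjamini-Hochberg values over all tested genes, and calls were made at adjusted p under 0.05. Log2 CPM carries a prior count of 2. The fit was tested on simulated data. No library was identical to another.

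The 7 genes and all gene lists were chosen with earlier results of these data known. From the thyroid hormone list, 1 gene is not reported here and was left out of its counts. The genes named are the 7, the 2 genes with the highest r to each, up to 5 called list genes per direction with the smallest adjusted p in HFD against CON, Ghr, Igf1, Stat5b, Thrb and Dio1 whether called or not, and tested relatives; others were chosen after their values were seen. Alternatives were library totals as the scale, no filter, at least 1 CPM in at least 5 libraries, DESeq2 1.42.0, limma 3.58.1 voom, only the groups compared, a replicate block, and leaving out each library. Promoter windows are RefSeq sequences of GRCr8; of the 7 symbols, 7 were found there and 6 had a window.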

Additional observations from a re-analysis of the deposited data

Results flagged for a closer look

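Dixon's test (critical value 0.71) was read in 21 sets, each of 1 of the 7 genes in 1 group of 5 libraries. In 4 of the 21 a single library lay past that value. Chance alone reaches it in about 1 in 20 sets of normally distributed values. The ratios were taken on CPM and not on log2 CPM, and whether CPM was normally distributed was not tested. The 4 of 21 are therefore not compared with that rate. Stac3 was at 486 CPM in CON 1, with the next CON library at 146 (Dixon ratio 0.735), and at 4.33 CPM in HFD 1, with the next HFD library at 1.02 (ratio 0.790). Nat8 was at 24.8 CPM in CON 1, with the next lowest at 44.9 (ratio 0.915). Gimd1 was at 0.244 CPM in ZXD 4, from 4 counts, with the 4 other ZXD libraries at 0; any count in a single library gives a ratio of 1 there, so that ratio carries no information.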

How the results depend on the processing

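Under the alternatives, all 154 values of the 7 genes in HFD against CON and all 154 in ZXD against CON stayed negative. The 7 were chosen for falls in these comparisons, so a change of sign was hardly possible and this is no support. In ZXD against HFD 144 of 151 kept their direction, and 7 changed sign. These were Stac3, between -1.03 and 1.57, and Srd5a1, between -0.43 and 0.061, when single libraries were left out. Adjusted p stayed between 0.181 and 1 in all 151. With only these 2 groups in the fit, Obp3, Stac3 and Gimd1 did not pass the filter and have no value.

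On library totals, 5385 genes were called higher in HFD against CON (1322 with TMM) and 505 lower (1436), and 6041 higher (2356) and 628 lower (1943) in ZXD against CON. With limma voom 794 were higher in HFD and 1529 in ZXD. Leaving out single libraries gave 754 (without HFD 2) to 1632 higher and 925 (without CON 3) to 1645 lower in HFD against CON; without CON 3 or CON 5 809 were higher, without HFD 5 780, and without CON 4, HFD 2 or HFD 5 934, 943 and 950 lower. In ZXD against HFD DESeq2 called 212 higher and 130 lower (1 of them a thyroid hormone gene, higher), and leaving out single libraries 0 to 6 higher (6 without HFD 1) and 0 to 1 lower (1 without HFD 1 or HFD 3).

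Of the lists, the pituitary genes called higher in HFD (1) were 6 on library totals, 0 under the stricter filter and 2 with DESeq2, and in ZXD (3) 6 on library totals. Thyroid hormone genes higher in HFD (2) were 4 on library totals, and those lower (7) were 11 with DESeq2. Relatives higher in HFD (2) were 7 on library totals, 5 with DESeq2, 0 with voom, 4 with only those groups and 2 to 6 with single libraries left out (4 without CON 1, HFD 3 or ZXD 4, 5 without ZXD 2 and 6 without HFD 4). Relatives higher in ZXD (8) were 3 with voom and 4 to 9 with single libraries left out (4 without ZXD 4). Relatives lower (3) were 5 without the filter in HFD and in ZXD. The causes were not tested.

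With the replicate block, 792 genes were higher and 1117 lower in HFD against CON, and 4 relatives higher in ZXD against CON. Same-numbered libraries were not alike throughout: of 15 such pairs 4 had a correlation of deviations over 0.1 (lowest -0.55, highest 0.26). In all, 3 libraries correlated best with their own number: HFD 1, HFD 2 and HFD 3 against CON (r 0.24, 0.22 and 0.26). The labels do not say whether the numbers mark a pairing. For Stac3 the block gave -6.79 (SE 0.49) in HFD and -6.43 (SE 0.48) in ZXD against CON, with a smaller SE than without it.

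Depth limits Obp3 and Gimd1 on the feed, where libraries held as few as 0 counts of the gene. It also limits Stac3 there, with as few as 2 counts in a library.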
